A study of Homo sapiens with 16 samples.

Results

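Human skin fibroblasts of the line CCD-1070Sk were serum starved and then stimulated for 1 h with 30 ng/ml of epidermal growth factor (EGF), and were set against cells left untreated (control, recorded as 0 h). These samples were chosen by their treatment labels and make up 7 of the 16 in the series, with 3 labelled EGF and 4 labelled untreated. Control 3 and control 4 held the same count at 100% of genes detected and entered once, so that 6 libraries remained (EGF 1 to 3 and control 1 to 3). Both groups were serum starved, and the labels name no vehicle and no untreated sample taken at 1 h. Further libraries were used for context: cells under 100 nM TPA, a phorbol ester that activates protein kinase C, for 1 h (n = 2), and cells given 10 µM H89, an inhibitor of protein kinase A and of the MSK kinases, for 30 min before 1 h of EGF (EGF+H89, n = 2). The series also holds cells under H89 alone (n = 3) and under H89 before TPA (TPA+H89, n = 2). All 15 libraries, in 6 groups, entered the main fits and shared an estimate of the spread between replicates. The labels do not say whether replicates are separate cultures, and the p-values given here cover the spread between these samples alone, part or all of which may be technical.

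EGF binds the EGF receptor, a tyrosine kinase, which passes the signal through GRB2, SOS and RAS to the kinases RAF, MEK and ERK. ERK and the kinases downstream of it act on factors that are already bound at a set of genes, which are therefore transcribed without new protein synthesis and are called immediate early genes. Many of these encode transcription factors (FOS, EGR, NR4A), and others encode phosphatases and receptor inhibitors that shut the signal off again. In skin, fibroblasts meet EGF receptor ligands during wound repair.

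The total count was 41514691, 23422453 and 57270922 in EGF 1 to 3, and 43565645, 20113265 and 33648925 in control 1 to 3. They fall into 3 technical batches with 1 EGF and 1 control library each, called pairs here. EGF 1 and control 1 had more genes at a count of 1 than at a count of 2. In pair 2 the ribosomal RNAs RNR1 and RNR2 took 26.6% of counts in EGF 2 and 30.4% in control 2, and pair 3 had 0 counts at both. In pair 1 that share was 0.0183% in EGF 1 and 4.48% in control 1, so these libraries are alike in their low counts and not in ribosomal RNA. The labels name more than 1 sequencing platform and do not say which library was read on which. Within a pair the log2 levels of EGF and control libraries correlated at 0.972, 0.975 and 0.986, while EGF 1 and control 1 had median correlations of only 0.865 and 0.885 with the other libraries of the series. The 12 fibroblast markers summed to 32300 to 66100 counts-per-million (CPM, of total counts) in EGF libraries and 33800 to 72700 in controls. The 8 keratinocyte markers summed to 7.09 to 25 CPM in EGF libraries and 8.1 to 13.2 in controls, and the 6 endothelial markers to 2.56 to 7.23 and 1.79 to 7.78. The 5 melanocyte markers summed to 1.92 to 3.61 CPM in EGF libraries and 1.24 to 2.96 in controls, and the 6 leukocyte markers to 0.873 to 3.61 and 0.149 to 2.78.

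EGF raised a small set of early genes, and no gene was called lower. With a term for each group, the quasi-likelihood test of edgeR, adjusted by Benjamini-Hochberg over 18575 genes, called 5 genes higher at an adjusted p under 0.05, which is 0.0269% of those tested. They were the transcription factors EGR2, ATF3 and CSRNP1, the phosphatase DUSP5 and the receptor inhibitor ERRFI1. The same test called 0 genes lower (0%), with 255 higher and 48 lower at an unadjusted p under 0.05, and DESeq2 called 56 higher and 1 lower. When the technical batch was a term in the fit, 41 genes were called higher (0.221%) and 0 lower (0%, with 125 lower at an unadjusted p under 0.05). All 5 were among the 41, and each of the 41 was higher with EGF in all 3 pairs, as were 14.7% of all genes tested (10.3% were lower in all 3). In 38 of the 41 every EGF library was above every control, as in 2.97% of all genes tested, and IER3, SERTAD3 and SERPINB2 were the exceptions. In bulk RNA, fewer cells of a type and less RNA per cell cannot be told apart.

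The count of 5 depended on single libraries. It was 10 without EGF 1, 3 without EGF 3, 3 without control 1 and 1 without control 3. It was 0 without EGF 2 (266 genes at an unadjusted p under 0.05) and 0 without control 2 (289 genes). With the EGF and control libraries alone in the fit it was 0 (228 genes), and 42 when pair terms were added. With the batch term the count of 41 higher dropped to between 8 (without control 3) and 17 (without EGF 2) when any 1 library was left out. DUSP5, CSRNP1, ATF3, PTGS2 and SOWAHC were called in all 6 of those fits. The fits without EGF 1 and without control 1 are not separate checks, since the library left alone in its batch adds nothing to the comparison. Each gave 14 calls, as did leaving out pair 1. Lower calls appeared in 3 of the 6 fits: RNR1 and RNR2 without EGF 2 and without control 2, and MTRNR2L2 without EGF 3.

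**Figure D1:**
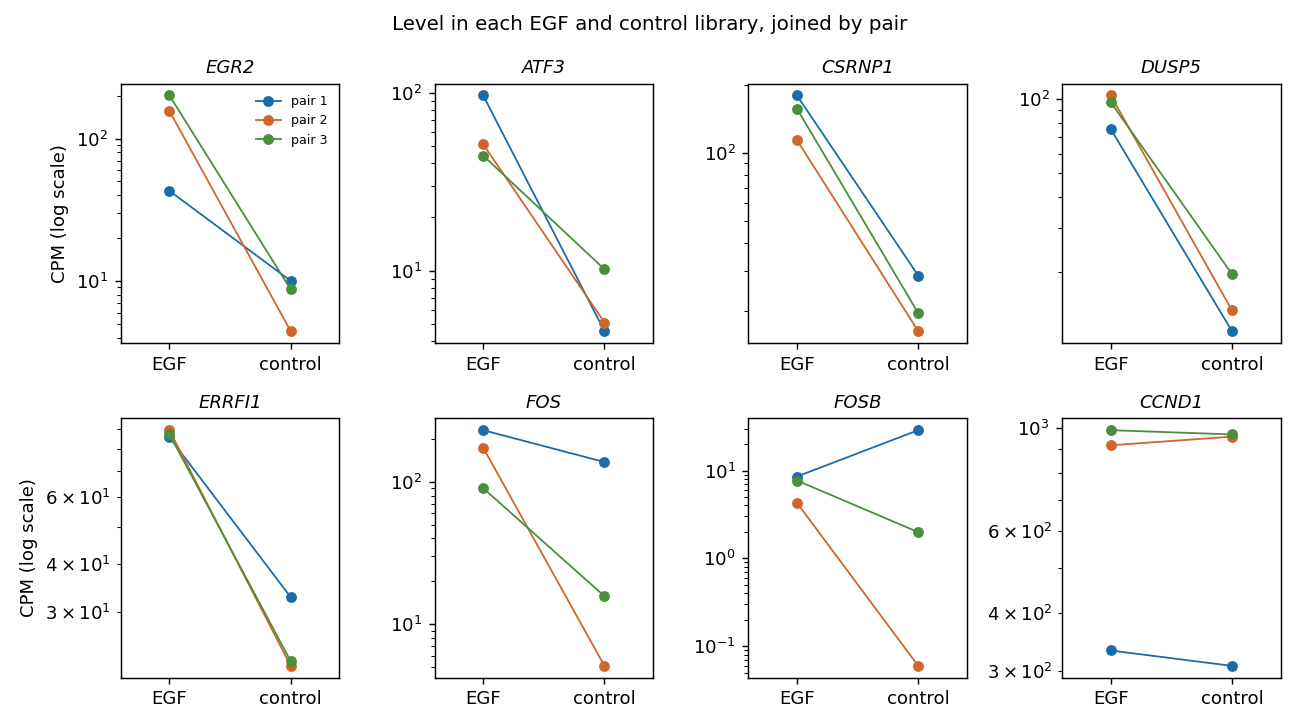
Level in CPM (log scale) of 8 genes in each EGF library (left) and control library (right), with lines joining the libraries of a pair. EGR2, ATF3, CSRNP1, DUSP5 and ERRFI1 were higher in every EGF library than in any control, FOS and FOSB were highest among controls in control 1, and CCND1 differed little within pairs.

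The 5 genes called in both fits were well separated in every pair. Levels are in CPM after TMM scaling (trimmed mean of M values), which compares libraries and not genes, since it takes no account of gene length. DUSP5, a nuclear phosphatase that inactivates ERK, stood at 75.7, 103.5 and 97.2 CPM in EGF 1 to 3, against 11.5, 13.9 and 19.5 CPM in control 1 to 3. Its lowest EGF library was thus far above its highest control, and the log2 fold change was 2.62 ± 0.30 (SE; adjusted p = 0.0162). CSRNP1, a nuclear factor with a cysteine- and serine-rich region, stood at 180.4, 114 and 158 CPM with EGF and at 28.6, 16.2 and 19.5 CPM in controls. Its within-pair differences were the most alike of the 5, at 2.65, 2.82 and 3.02 on the log2 scale, and its fold change was 2.81 ± 0.37 (adjusted p = 0.0207). ATF3, a stress-responsive transcription factor, stood at 96.5, 51.3 and 44.3 CPM with EGF and at 4.56, 5.10 and 10.2 CPM in controls. EGF 1 was the highest of these and control 3 the highest control, so the log2 difference was 4.39 in pair 1 and 2.12 in pair 3, with a fold change of 3.27 ± 0.45 (adjusted p = 0.0242). ERRFI1, which binds the kinase domain of the EGF receptor and inhibits it, was nearly constant at 85.6, 89.4 and 87.3 CPM in the EGF libraries, against 32.9, 21.8 and 22.4 CPM in controls. Control 1 was the highest control, and the fold change was 1.77 ± 0.23 (adjusted p = 0.0207).

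EGR2, a zinc-finger transcription factor of the early growth response family, had the largest log2 fold change of the 5 at 4.11 ± 0.52 (adjusted p = 0.0207). It stood at 43.0, 157 and 201 CPM in EGF 1 to 3 and at 10.0, 4.44 and 8.71 CPM in control 1 to 3. The groups did not overlap, but EGF 1 was well below the other EGF libraries, and without pair 1 the fold change was 4.75 ± 0.39. The RefSeq promoter table lists 3 windows for EGR2, each from 250 bases before to 50 bases after a start site. One of them, at chr10:62816317-62816616 on the minus strand of GRCh38.p14, holds a CArG box, the motif bound by serum response factor (SRF), at bases -71 to -62 from the start. It is printed because EGR2 was the only gene of the 30 with a window, out of the 41, to hold this motif, whose letters are in capitals.
EGR2: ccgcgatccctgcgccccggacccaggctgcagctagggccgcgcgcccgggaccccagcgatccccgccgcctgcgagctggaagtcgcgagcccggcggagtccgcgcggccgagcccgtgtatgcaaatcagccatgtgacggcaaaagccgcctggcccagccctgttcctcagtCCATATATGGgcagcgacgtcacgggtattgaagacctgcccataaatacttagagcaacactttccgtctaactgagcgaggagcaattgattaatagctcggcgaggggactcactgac
Among tested genes with a window, 1.64% hold a CArG box in any of theirs (229 of 13934).

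TGACGTCA, the full cyclic AMP response element, is known to be bound by CREB and ATF proteins. It was present in 4 of the 30 genes (13.3%), namely DUSP1, MAFF, CCNL1 and SLC25A25, against 3.38% of tested genes. These 4 windows are printed with the motif in capitals, 5′ to 3′ along the gene, and since the motif is its own reverse complement it reads the same on both strands. It begins 125 bases before the start in DUSP1 (chr5:172771146-172771445, minus strand), 54 in MAFF (chr22:38201744-38202043, plus), 86 in CCNL1 (chr3:157160098-157160397, minus) and 200 in SLC25A25 (chr9:128098257-128098556, plus). MAFF has 2 windows and SLC25A25 has 3, and in each only the printed window holds the motif. Which start was in use was not measured.
DUSP1: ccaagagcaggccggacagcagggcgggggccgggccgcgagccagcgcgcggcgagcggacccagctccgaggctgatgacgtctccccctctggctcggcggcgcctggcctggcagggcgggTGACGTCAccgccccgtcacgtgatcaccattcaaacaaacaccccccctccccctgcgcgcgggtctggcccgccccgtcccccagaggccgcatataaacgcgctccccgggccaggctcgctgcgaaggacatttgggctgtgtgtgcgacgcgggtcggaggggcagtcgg
MAFF: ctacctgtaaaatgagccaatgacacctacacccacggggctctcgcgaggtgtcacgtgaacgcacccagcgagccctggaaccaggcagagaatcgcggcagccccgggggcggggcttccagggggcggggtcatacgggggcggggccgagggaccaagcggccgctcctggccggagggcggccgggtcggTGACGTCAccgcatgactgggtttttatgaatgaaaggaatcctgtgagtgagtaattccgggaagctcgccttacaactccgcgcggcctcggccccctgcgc
CCNL1: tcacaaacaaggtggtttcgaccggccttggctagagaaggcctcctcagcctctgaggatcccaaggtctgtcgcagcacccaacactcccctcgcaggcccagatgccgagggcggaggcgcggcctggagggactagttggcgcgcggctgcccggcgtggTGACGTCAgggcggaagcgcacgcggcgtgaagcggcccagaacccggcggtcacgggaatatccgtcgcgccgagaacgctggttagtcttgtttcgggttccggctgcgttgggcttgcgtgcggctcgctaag
SLC25A25: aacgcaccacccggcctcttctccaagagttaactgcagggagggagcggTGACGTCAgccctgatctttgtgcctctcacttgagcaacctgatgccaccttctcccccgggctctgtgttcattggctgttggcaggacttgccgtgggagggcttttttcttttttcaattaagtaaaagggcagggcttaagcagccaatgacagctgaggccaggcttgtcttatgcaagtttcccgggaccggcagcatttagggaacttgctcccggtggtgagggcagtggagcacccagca
The other motifs searched on both strands were TGANTCA (bound by FOS and JUN dimers), in 6.67% of the 30 genes and 7.75% of tested genes, and GCGNGGGCG (bound by EGR factors), in 16.7% and 17.6%. TATAAA was present in 16.7% and 10.0%. The motifs do not overlap one another in these windows except where TGACGTCA or TGANTCA or the CArG box is counted on both strands of the same bases. These matches describe letters in RefSeq sequence and were not measured as binding, and the counts in the deposited table were made on the older build hg19 (GRCh37), per the submitters' processing notes.

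All 4 of these genes were higher in every EGF library than in any control. So were 38 of the 41 called genes they were taken from, and 2.97% of all genes tested. The separation is therefore no trait of genes with the motif. DUSP1, a phosphatase of ERK, JNK and p38, stood at 495, 530.1 and 436 CPM with EGF and at 67.0, 56.6 and 70.5 CPM in controls. The groups were far apart, with a log2 fold change of 2.91 ± 0.45 (adjusted p = 0.0563) without the batch term and 2.95 ± 0.37 with it (adjusted p = 0.00165). MAFF, a small basic leucine zipper factor, stood at 98.8, 101 and 121 CPM with EGF and at 24.9, 32.4 and 48.0 CPM in controls, and its batch-term fold change was 1.66 ± 0.30 (adjusted p = 0.0325). CCNL1, a cyclin that acts with splicing kinases, stood at 96.6, 258 and 124 CPM with EGF and at 27.0, 44.4 and 48.8 CPM in controls, with EGF 2 the highest. SLC25A25, a mitochondrial carrier of ATP and phosphate, stood at 88.99, 57.5 and 55.0 CPM with EGF and at 27.9, 20.3 and 22.5 CPM in controls. The batch-term log2 fold changes of CCNL1 and SLC25A25 were 1.96 ± 0.37 (adjusted p = 0.0404) and 1.49 ± 0.22 (adjusted p = 0.00547).

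**Figure D2:**
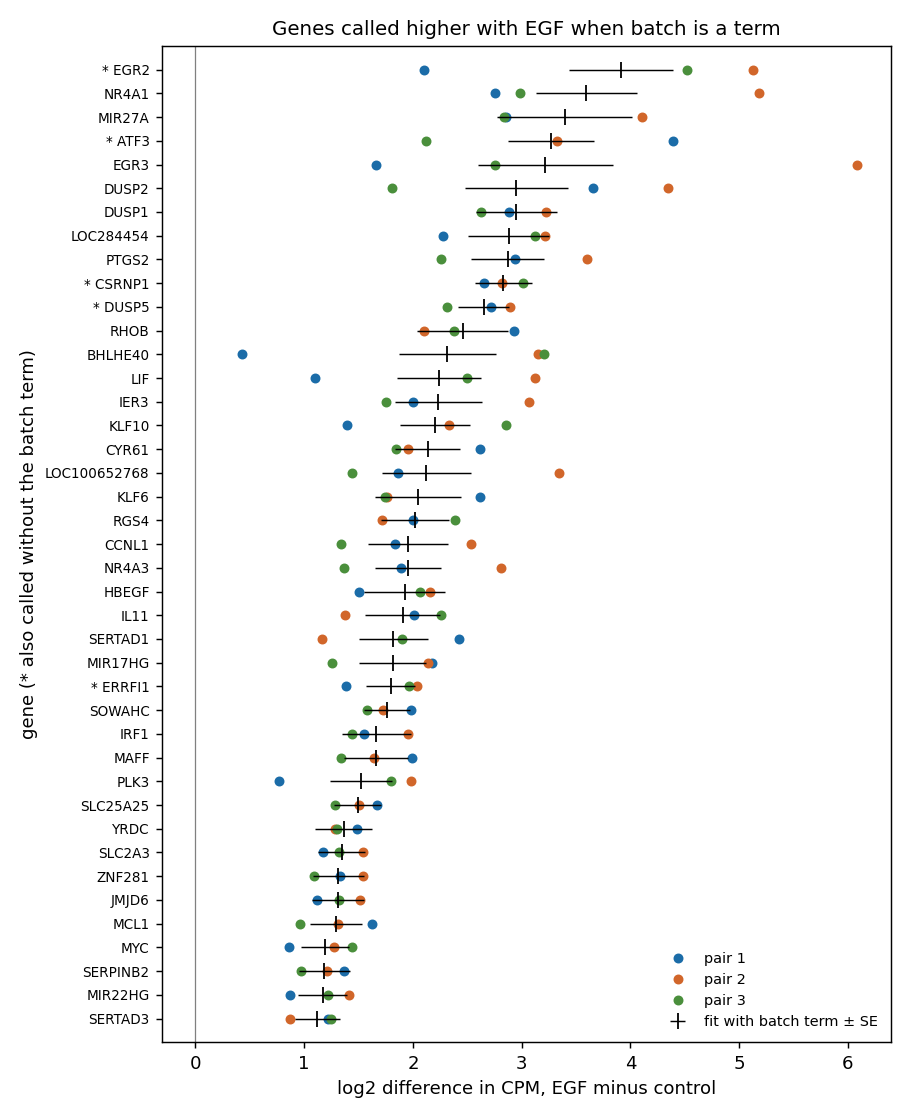
Log2 difference in CPM, EGF minus control, within each of the 3 pairs (coloured points, prior count of 2) and the fitted log2 fold change ± SE with the batch term (black), for the 41 genes called higher with that term. Every point lies right of 0, from 0.43 for BHLHE40 in pair 1 to 6.09 for EGR3 in pair 2.

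Members of the EGR family of early transcription factors rose with EGF. The 6 EGR factors and NAB corepressors had a median log2 fold change of 2.19 without the batch term, beside 0.02 over all genes tested. This median lies between EGR1 and EGR4, and EGR4 was near the floor. EGR4 had 15, 4 and 3 counts with EGF and 10, 0 and 0 in controls (1.21 ± 1.46), and was not called. The gene lists were chosen with earlier results of these data known, so their medians and shares describe the members and are no test. EGR2 and, with the batch term, EGR3 were called. EGR3 stood at 17.1, 80.4 and 93.7 CPM with EGF and at 5.39, 1.14 and 13.8 CPM in controls. The lowest EGF library was only just above the highest control, and its batch-term fold change was 3.22 ± 0.62 (adjusted p = 0.0458). EGR1, the founding member, stood at 68.7, 215.5 and 268 CPM with EGF and at 32.8, 7.98 and 20.8 CPM in controls. The groups did not overlap, yet EGR1 was not called in either fit (3.16 ± 0.69, adjusted p = 0.293, and 3.15 ± 0.68, adjusted p = 0.0938 with the batch term), and it was called by DESeq2 (adjusted p = 0.000325). NAB2, a corepressor of EGR factors, had within-pair differences of 0.64, 0.96 and 0.98, and NAB1 of 0.44, 0.10 and −0.21, and neither was called.

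FOS and JUN proteins pair to form the AP-1 factor, and 0 of their 7 genes was called in either edgeR fit, although the list's median was 1.64 (3 of the 7 had an adjusted p under 0.05 in DESeq2 with the batch term). FOS stood at 230.5, 174 and 90.3 CPM with EGF and at 138, 5.10 and 15.7 CPM in controls. Control 1 lay above EGF 3, so the groups overlapped, and the within-pair log2 differences were 0.74, 5.08 and 2.52 (1.64 ± 0.87, adjusted p = 1; with the batch term 2.67 ± 0.62, adjusted p = 0.131). FOSB stood at 8.54, 4.30 and 7.69 CPM with EGF and at 28.8, 0.06 and 1.99 CPM in controls, where control 2 was a single count. For FOSB control 1 was the highest of the 6 libraries. The fitted fold change of FOSB changed sign from −0.59 ± 1.07 to 1.11 ± 0.77 when the batch term was added. JUN stood at 503, 308 and 336 CPM with EGF and at 155.5, 81.3 and 129 CPM in controls. JUNB stood at 252, 426 and 643 CPM with EGF and at 79.6, 48.7 and 136 CPM in controls. Neither overlapped, and their batch-term fold changes were 1.66 ± 0.36 (adjusted p = 0.10) and 2.35 ± 0.52 (adjusted p = 0.106). DESeq2 without the batch term called JUN (adjusted p = 0.0495). An edgeR fit of the EGF and control libraries alone, with pair terms, called JUN and JUNB (adjusted p = 0.0136 and 0.0122). FOSL1, a FOS relative, was lower with EGF in pair 1 (−0.42) and higher in pairs 2 and 3 (2.16 and 2.08), and was not called.

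Of the 3 NR4A orphan nuclear receptors, NR4A1 and NR4A3 were called higher when batch was a term. NR4A1 stood at 87.2, 75.8 and 71.0 CPM with EGF and at 12.9, 2.04 and 8.91 CPM in controls, a batch-term log2 fold change of 3.60 ± 0.47 (adjusted p = 0.00179). NR4A3 was lower in level, at 5.44, 10.7 and 10.2 CPM with EGF and 1.43, 1.5 and 3.93 CPM in controls (1.96 ± 0.30, adjusted p = 0.00937). The groups were apart for both, by a narrow margin between EGF 1 and control 3 for NR4A3. NR4A2 stood at 0.268, 1.21 and 0.502 CPM with EGF and 1.48, 0.90 and 1.47 CPM in controls, and was not called (−1.005 ± 0.50, adjusted p = 1).

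The other 29 early transcription factors had a median of 0.84, and 69.0% of them were higher in all 3 pairs, beside 14.7% of all genes. This list was chosen with earlier results of these data known, so the higher share is not a test. ATF3 and CSRNP1 were called higher without the batch term, and with it KLF6, KLF10, MAFF, BHLHE40, IRF1 and MYC were called too. KLF10, a Krüppel-like repressor also induced by TGF-beta, stood at 122, 254 and 395 CPM with EGF and at 46.2, 50.6 and 54.5 CPM in controls. MYC, a driver of growth and ribosome synthesis, stood at 113, 68.5 and 71.2 CPM with EGF and at 62.3, 28.3 and 26.1 CPM in controls, so that its groups were apart by a small gap between EGF 2 and control 1. Their batch-term fold changes were 2.20 ± 0.33 (adjusted p = 0.0067) and 1.19 ± 0.22 (adjusted p = 0.0369). BHLHE40, a repressor of clock genes, differed by 0.43 in pair 1 but by 3.15 and 3.21 in pairs 2 and 3. KLF6 stood at 189, 42.3 and 44.2 CPM with EGF and at 30.8, 12.4 and 13.2 CPM in controls, with both libraries of pair 1 above the others of their group. IRF1, a factor of the interferon response, differed by 1.55, 1.96 and 1.44. HES1 and KLF2 were also apart between groups, with batch-term adjusted p of 0.0567 and 0.167. DESeq2 called HES1 (adjusted p = 0.0176), and the fit of EGF and control libraries alone with pair terms called KLF2 (adjusted p = 0.0328). ELK3 (−1.53, 0.00 and −0.23 within pairs) was the list's lowest and was not called.

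Genes of phosphatases and inhibitors that shut the signal off were among those called. Of 11 MAP kinase phosphatases, DUSP5 was called higher in both fits and DUSP1 and DUSP2 with the batch term. The list's median was 0.46. DUSP2, a nuclear phosphatase best known from lymphocytes, stood at 12.5, 3.27 and 4.12 CPM with EGF and at 0.956, 0.12 and 1.15 CPM in controls, where control 2 held 2 counts. Its groups were apart, with EGF 1 the highest library (batch-term fold change 2.95 ± 0.47, adjusted p = 0.0141). DUSP6, a cytoplasmic phosphatase specific for ERK, stood at 56.7, 119 and 118 CPM with EGF and at 31.5, 42.6 and 41.8 CPM in controls. Its groups were apart too, but its batch-term adjusted p was 0.10. DESeq2 called it (adjusted p = 0.0495). DUSP4 and DUSP10 had within-pair differences of 0.15, 0.33 and 0.27, and of −0.35, −0.06 and 0.18, and were not called. Among the 14 receptor feedback inhibitors ERRFI1 alone was called in either edgeR fit, and the list's median was 0.16. SPRY2, a Sprouty inhibitor of RAS signalling, stood at 36.6, 29.8 and 38.6 CPM with EGF and at 19.7, 14.3 and 19.2 CPM in controls (batch-term 0.98 ± 0.22, adjusted p = 0.106). SOCS3, an inhibitor of cytokine receptors, stood at 304, 394 and 390.4 CPM with EGF and at 89.2, 82.0 and 118.5 CPM in controls (1.93 ± 0.45, adjusted p = 0.132). Both were apart between groups. DESeq2 called SPRY2 (adjusted p = 0.0413), and the fit of EGF and control libraries alone with pair terms called SOCS3 (adjusted p = 0.00982). SPRY4 was lower with EGF in pair 1 (−0.59) and higher in pairs 2 and 3 (1.94 and 1.69), and SPRY1 was lower in all 3 pairs (−1.20, −0.46 and −0.85). Neither was called with all libraries, and without EGF 1 SPRY4 was called higher (1.89 ± 0.29, adjusted p = 0.0436).

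Of 15 IER genes and early stress regulators, 3 were called higher in the batch-term fit, beside 0.221% of all genes tested. The list, also chosen with earlier results known, had a median of 1.28 without that term. In all 3 pairs 73.3% of it was higher, beside 14.7% of all genes tested. IER3, an early gene linked to survival of stressed cells, stood at 83.4, 269 and 357 CPM with EGF and at 20.8, 32.1 and 106 CPM in controls. Control 3 was above EGF 1, so the groups overlapped although every pair differed by at least 1.75 (2.23 ± 0.40, adjusted p = 0.0326). MCL1, an inhibitor of apoptosis with a short-lived protein, stood at 684, 498 and 622 CPM with EGF and at 222, 201 and 320.1 CPM in controls (1.29 ± 0.24, adjusted p = 0.0336). PLK3, a stress-responsive kinase, differed by 0.77, 1.99 and 1.80. IER2 and IER5 had similar differences in the 3 pairs (1.96, 1.87 and 1.32, and 1.84, 1.26 and 1.02). They missed the threshold in the batch-term fit, with adjusted p of 0.10 and 0.0552, but DESeq2 called both (adjusted p = 0.0292 and 0.0146). The 10 mRNA decay factors had a median of 0.29 and 0 called in either edgeR fit. In this list ZFP36, which destabilizes cytokine mRNAs, differed by 0.09 in pair 1 and by 2.72 and 2.32 in the others, and ZC3H12A, an endonuclease, by 0.92, 2.66 and 1.78.

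EGF also raised genes for secreted signals. Of 8 EGF receptor ligands 6 were tested; AREG was not matched in the table, and BTC did not pass the filter, with at most 7 counts in any library. HBEGF, heparin-binding EGF-like growth factor, stood at 5.33, 6.30 and 11.5 CPM with EGF and at 1.85, 1.38 and 2.71 CPM in controls, and was called with the batch term (1.92 ± 0.37, adjusted p = 0.0458). Each EGF library was above each control. EREG, epiregulin, differed by 1.06, 1.53 and 1.21 within pairs but its levels followed the pairs, at 3.72, 41.8 and 39.4 CPM with EGF and 1.76, 14.4 and 17.03 CPM in controls (batch-term 1.28 ± 0.28, adjusted p = 0.105). NRG1, neuregulin, differed by −0.85, 0.50 and 0.37. Of 24 early secreted factors tested, LIF and IL11 were called higher with the batch term, and the list's median was 0.25. LIF, a cytokine of the interleukin-6 family, stood at 23.1, 62.9 and 79.0 CPM with EGF and at 10.8, 7.20 and 13.99 CPM in controls (2.24 ± 0.39, adjusted p = 0.0276). IL11, of the same family, stood at 16.8, 21.3 and 48.8 CPM with EGF and at 4.13, 8.16 and 10.2 CPM in controls (1.91 ± 0.34, adjusted p = 0.0326). Both were apart between groups, with EGF 3 the highest library. IL6 overlapped, with differences of 0.50, 2.43 and 0.70, and was not called, and neither was VEGFA, with 0.42, 0.83 and 0.87.

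PTGS2, the inducible cyclooxygenase of prostaglandin synthesis, stood at 93.1, 404 and 264 CPM with EGF and at 12.1, 33.4 and 55.2 CPM in controls. Its groups were apart and its within-pair differences were 2.93, 3.60 and 2.26. It had an adjusted p of 0.293 without the batch term (2.92 ± 0.61) and of 0.00134 with it (2.87 ± 0.34). SERPINB2, an inhibitor of urokinase, was also called with the batch term (1.19 ± 0.23, adjusted p = 0.0458), at 15.6, 66.0 and 56.9 CPM with EGF and 6.02, 28.4 and 29.03 CPM in controls. Its groups overlapped, with both libraries of pair 1 low. The 15 tested prostaglandin, hyaluronan and plasminogen genes had a median of 0.04. Of the 19 SRF and MRTF cytoskeletal targets 1 was called, with the batch term. This was CYR61, a matricellular protein, at 495, 526.5 and 477 CPM with EGF and 81.0, 136 and 133 CPM in controls (2.13 ± 0.30, adjusted p = 0.00373). Its relative CTGF differed by 2.00, 0.53 and 1.52, and MYL9, a myosin light chain, by −2.81, −0.59 and 0.58, and neither was called.

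**Figure D3:**
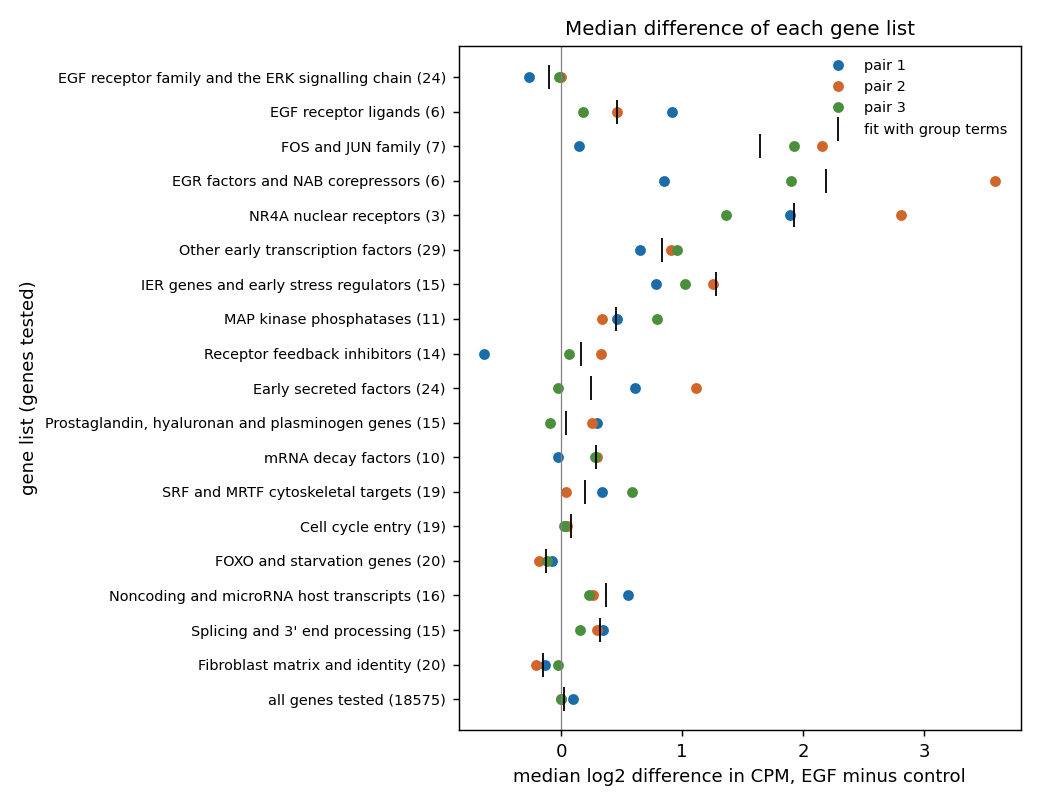
Median log2 difference in CPM, EGF minus control, of each gene list within pairs 1 to 3 (points) and from the fit with group terms (black bars), with the number of genes tested in brackets. By the fit with group terms the EGR, FOS and JUN, NR4A and IER lists lie furthest to the right. In pair 1 the FOS and JUN list is at 0.15 and the receptor feedback inhibitors at −0.63. The EGF receptor ligands are at 0.91 in that pair, right of the EGR and IER lists.

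Host transcripts of microRNAs were among the called genes. LOC284454, which RefSeq names MIR23AHG by its gene ID, stood at 13.5, 66.0 and 78.6 CPM with EGF and at 2.74, 7.08 and 8.99 CPM in controls. The groups were apart and the batch-term fold change was 2.88 ± 0.37 (adjusted p = 0.00165). MIR27A lies inside this transcript, so its reads (3.10, 1.73 and 2.04 CPM with EGF, 0.391, 0.06 and 0.249 CPM in controls, with 1 count in control 2) may belong to the host; it was called with the batch term as well (adjusted p = 0.0336). MIR17HG, host of the miR-17 to miR-92a cluster, stood at 7.00, 9.67 and 8.06 CPM with EGF and at 1.52, 2.16 and 3.36 CPM in controls (1.81 ± 0.31, adjusted p = 0.0253). MIR22HG, host of miR-22, stood at 140, 213 and 169 CPM with EGF and at 76.4, 79.7 and 72.5 CPM in controls (1.17 ± 0.23, adjusted p = 0.0458). Each was higher in every EGF library than in any control. The mature microRNAs were not measured. Some of those carried by the hosts are printed as examples, from RefSeq (GRCh38.p14), 5′ to 3′, with the seed (bases 2 to 8) in capitals. Others, including the opposite arms and further members of the MIR17HG cluster, are left out. The printed miR-17-5p and miR-20a-5p share a seed.
miR-23a-3p: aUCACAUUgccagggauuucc
miR-27a-3p: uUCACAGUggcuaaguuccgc
miR-24-3p: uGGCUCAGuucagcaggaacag
miR-17-5p: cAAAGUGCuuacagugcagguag
miR-20a-5p: uAAAGUGCuuauagugcagguag
miR-22-3p: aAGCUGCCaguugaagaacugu
Of the 16 tested noncoding and host transcripts in the list MIR17HG and MIR22HG were the 2 called in either edgeR fit, and the median was 0.37. MIR143HG and LINC00152 were not matched in the table and LINC00473 did not pass the filter.

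Of the 41 genes 27 were in a list, and the others included a regulator of G proteins. RGS4, which speeds GTP hydrolysis by G protein alpha subunits, stood at 55.2, 28.8 and 33.6 CPM with EGF and at 13.7, 8.76 and 6.37 CPM in controls (2.02 ± 0.31, adjusted p = 0.00937). EGF 1 was the highest library and the groups were apart. SLC2A3, the glucose transporter GLUT3, stood at 66.4, 131 and 141 CPM with EGF and at 29.5, 44.8 and 56.4 CPM in controls (1.35 ± 0.22, adjusted p = 0.0141). SOWAHC had 53.4, 68.6 and 84.3 CPM with EGF and 13.5, 20.7 and 28.2 CPM in controls, and its differences of 1.99, 1.73 and 1.58 were among the most even (1.76 ± 0.21, adjusted p = 0.00134). SERTAD1, a coregulator of E2F factors, ZNF281, a zinc-finger factor, JMJD6, a lysyl hydroxylase, and YRDC, an enzyme of transfer RNA modification, rose by batch-term log2 fold changes of 1.82, 1.31, 1.31 and 1.36. SERTAD3 (1.12) and the uncharacterised LOC100652768 (2.12) were also called with the batch term. EDN1, the vasoconstrictor peptide endothelin-1, was at least 1 log2 unit higher in all 3 pairs and had a batch-term adjusted p of 0.0795. DESeq2 called it (adjusted p = 0.00349).

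By size alone, 101 genes (0.544%) were at least 1 log2 unit higher with EGF in all 3 pairs and 13 (0.07%) were at least 1 lower. Among the 10876 genes with a mean of 5 CPM or more, these counts were 48 and 0. No gene was called lower in these 2 edgeR fits. Among genes with a mean of at least 1 CPM, the 5 lower genes of smallest p were ZNF792, ZKSCAN4, NATD1, GID4 and SALL2. ZNF792, a zinc-finger protein, stood at 3.15, 2.24 and 1.51 CPM with EGF and at 6.06, 6.18 and 5.53 CPM in controls. Every EGF library was below every control, the fold change was −1.37 ± 0.30 (adjusted p = 0.293; −1.42 ± 0.30 and adjusted p = 0.089 with the batch term), and DESeq2 called it (adjusted p = 0.00736). ZKSCAN4 had 5.53, 4.06 and 4.53 CPM with EGF and 10.8, 7.86 and 7.59 CPM in controls, also apart. DESeq2 with the batch term, a fit chosen after seeing the data, called ZKSCAN4 lower (−0.88 ± 0.23, adjusted p = 0.0311). NATD1 and SALL2 differed most in pair 1 (−1.75 and −2.38), and less in pair 2 (−0.55 and −0.58) and pair 3 (−0.30 and −0.29).

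Several other gene groups had 0 called in either edgeR fit. The 24 genes of the EGF receptor family and the ERK chain had a median of −0.10. EGFR itself stood at 41.8, 136 and 132 CPM with EGF and at 147, 136.3 and 143 CPM in controls. Only EGF 1 was much below the others, and the within-pair differences were −1.81, 0.00 and −0.12 (−0.46 ± 0.34, adjusted p = 1). The 19 cell cycle entry genes had a median of 0.08. CCND1, cyclin D1, stood at 332.5, 919 and 990.4 CPM with EGF and at 308, 959 and 970 CPM in controls, with a fold change of 0.00 ± 0.48. It followed the pair and not the treatment. The 20 FOXO and starvation genes had a median of −0.12, and TXNIP, an inhibitor of thioredoxin and of glucose uptake, stood at 298, 279 and 232 CPM with EGF and at 453, 559 and 396 CPM in controls. Its groups were apart but it was not called (−0.80 ± 0.43, adjusted p = 1). The 15 splicing and 3′ end processing genes had a median of 0.32, beside 0.02 over all genes. Of these 46.7% were higher in all 3 pairs, beside 14.7% of all genes tested. In 6 of the 15 every EGF library was above every control, as in 2.97% of all genes tested. This list too was chosen with earlier results of these data known. For the 20 genes of fibroblast matrix and identity the median was −0.15. Of these fibroblast genes FN1, fibronectin, differed by −1.38, −0.29 and −0.29, and VIM, vimentin, by −0.92, −0.21 and −0.14.

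Pair 1 stood apart in several members. Its list medians were 0.15 for FOS and JUN genes, 0.85 for EGR and NAB genes and −0.63 for receptor feedback inhibitors, against 2.16, 3.58 and 0.33 in pair 2 and 1.93, 1.90 and 0.06 in pair 3. Of the preset genes and those called in the 2 edgeR fits, FOSB, EGR3 and FOS had the widest range of within-pair differences. Control 1 held 138 CPM of FOS and 28.8 CPM of FOSB, above the other controls, while for EGR1 it held 32.8 CPM and for EGR2 10.0 CPM, the highest controls as well. The part of the technical batch in these differences was not tested, as each pair is a batch.

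The TPA and EGF+H89 libraries show the same genes under another mitogen and under the kinase inhibitor; both comparisons use the EGF libraries given above. Of the 41 genes, 5 were higher with TPA than with EGF in the batch-term fit and 0 lower, where 0.205% of all genes tested were higher and 0.129% lower. Without the batch term edgeR called 0 genes (2480 at an unadjusted p under 0.05), DESeq2 called 296, and edgeR called 1165 when TPA 1 was left out. DUSP2 stood at 54.0 and 94.9 CPM in TPA 1 and 2, against the 3.27 to 12.5 CPM of the EGF libraries (4.10 ± 0.51, adjusted p = 0.00277). NR4A3 stood at 62.3 and 77.0 CPM with TPA, against 5.44 to 10.7 CPM with EGF (2.73 ± 0.33, adjusted p = 0.00277). Both TPA libraries were above every EGF library for these genes. NR4A1, MAFF and IER3 were the others, with log2 fold changes of 2.45 ± 0.48, 1.90 ± 0.34 and 2.60 ± 0.46 (adjusted p = 0.0427, 0.0254 and 0.0227). Each differed widely between TPA 1 and TPA 2, at 201 and 650 CPM for NR4A1, 219 and 723.5 for MAFF, and 683 and 3631 for IER3. FOS and FOSB, which neither of the 2 edgeR fits called for EGF against control, were also higher with TPA, at 785 and 1081 CPM and at 76.0 and 151.5 CPM (3.25 ± 0.62, adjusted p = 0.036, and 4.74 ± 0.73, adjusted p = 0.0125). ERRFI1 was at 91.7 and 100.3 CPM with TPA, near the 85.6 to 89.4 CPM with EGF (0.22 ± 0.25, adjusted p = 0.677). LOC284454 was at 38.0 and 24.2 CPM with TPA, against 13.5 to 78.6 CPM with EGF, and was not called (−1.11 ± 0.40, adjusted p = 0.166).

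**Figure D4:**
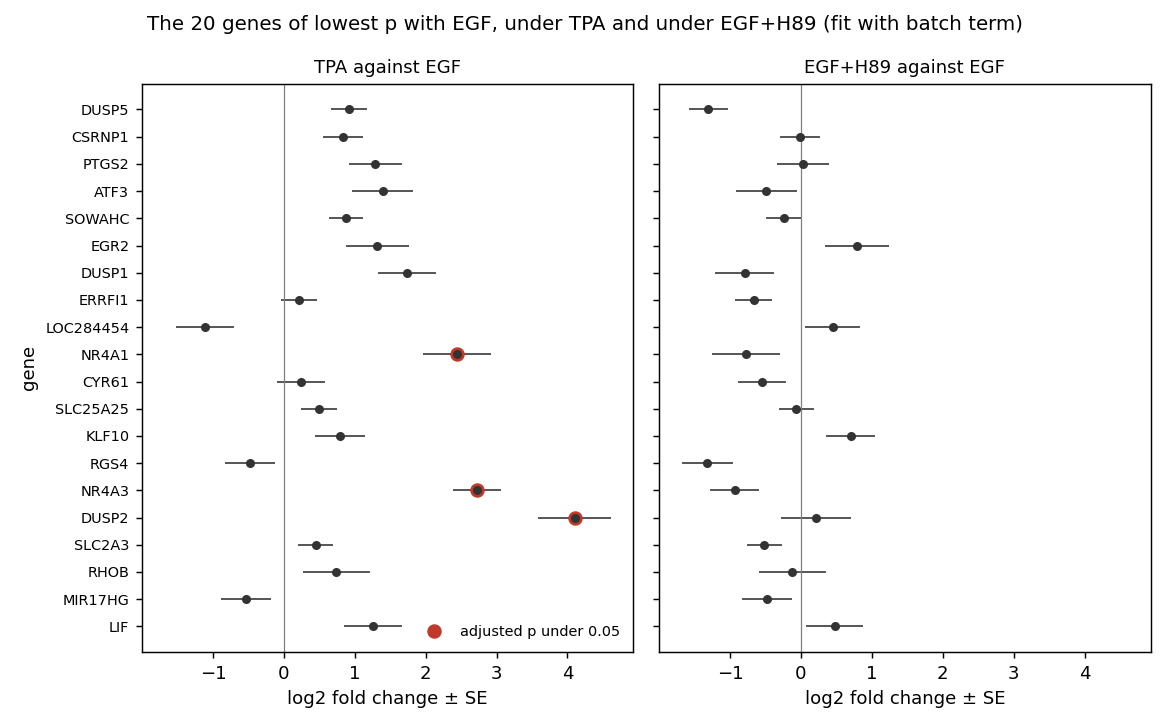
Log2 fold change ± SE from the fit with a batch term, of TPA against EGF (left) and of EGF+H89 against EGF (right), for the 20 genes of lowest p among those called for EGF against control. Red points mark NR4A1, NR4A3 and DUSP2, whose adjusted p was under 0.05 for TPA, and no point is marked for EGF+H89.

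H89 before EGF gave 0 called genes in either edgeR fit, with 310 genes at an unadjusted p under 0.05 without the batch term (14 higher and 296 lower) and 1 call by DESeq2. DUSP5 stood at 42.3 and 40.0 CPM in the EGF+H89 libraries, against 75.7 to 103.5 CPM in the EGF libraries. All EGF+H89 values were lower, with a log2 fold change of −1.30 ± 0.27 in the batch-term fit (adjusted p = 0.677). RGS4 stood at 12.1 and 12.7 CPM in EGF+H89 and at 28.8 to 55.2 CPM in EGF (−1.32 ± 0.36, adjusted p = 1). ERRFI1 stood at 56.0 and 47.8 CPM in EGF+H89 and at 85.6 to 89.4 CPM in EGF (−0.67 ± 0.26, adjusted p = 1). EGR2, at 243 and 240 CPM, and KLF10, at 447 and 461 CPM, were above all EGF libraries, and their fold changes were 0.79 ± 0.45 and 0.70 ± 0.35 (adjusted p = 1 for both). These p-values do not show that H89 left the genes as they were with EGF alone, since each comparison rests on 2 EGF+H89 libraries and none shares a batch with EGF 1.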

How the data were processed

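RNA after depletion of ribosomal RNA was sequenced from CCD-1070Sk cells. The deposited values are raw counts per gene in 1 table of 28374 genes and 16 samples, which the authors made with HOMER on hg19 (GRCh37), per the submitters' processing notes; the aligner and the use of strand are not given in these sources. Libraries were mapped to treatments by their labels. The identical control copy was left out, which left 15 libraries with total counts of 7527026 to 130075914.

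Genes were kept by filterByExpr (smallest count 10), which left 18575, and scaled by TMM. The main test was edgeR 4.0.16 (R 4.3.3), a quasi-likelihood fit of all 15 libraries with a term per group, with Benjamini-Hochberg adjustment at 0.05. Log2 fold changes are edgeR's, on its own small prior count. Batches were read from the counts (genes at a count of 1 and 2, RNR1 and RNR2) and entered as a term in an alternative fit; DESeq2 1.42.0, RLE size factors, other filters and leaving out libraries were further alternatives. Within-pair differences are of log2 CPM with a prior count of 2. Deviations from the group means correlated at 0.866, 0.642 and 0.74 within pairs 1 to 3, and the pairing comes from these batches and not from the labels.

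Named genes were all those called in either fit, preset genes, up to 4 others and the lowest of each list by p and fold change, the 5 lower genes of smallest p and genes past 1 log2 unit in all pairs; some of these are not reported here. Members and lists were chosen with earlier results of these data known. The fits were also run on simulated counts with known changes, which held no outlying library. The outcome is not reported here and backs no result above. Sequences are from RefSeq (GRCh38.p14), with promoters for 30 of the 41 genes called with the batch term.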

Additional observations from a re-analysis of the deposited data

How the results depend on the processing

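The number of genes called for EGF against control was 5 in the fit with group terms. It was 41 with the batch term, 57 with DESeq2, 104 with DESeq2 and the batch term (chosen after seeing the data), 6 with RLE size factors, and 7 both without a filter and with a filter of 10 counts in 50% of the libraries. DESeq2 shared 35 of the 41. With the compared groups alone edgeR called 0 of 15858 genes (228 at an unadjusted p under 0.05), and 42 when the replicate block, which is the pair, was added. Leaving out pair 1 gave 3 with group terms and 14 with the batch term, leaving out pair 1 and TPA 2 gave 23, and both copies of control 3 gave 11. Leaving out 1 library gave 0 to 10 without the batch term and 8 to 19 with it, of which up to 2 were lower. The cause of these changes was not tested.

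For TPA against EGF the count was 0, 62 with the batch term, 296 with DESeq2, and 0 to 1165 when 1 library was left out (1165 without TPA 1). For EGF+H89 against EGF it was 0, 0 with the batch term, 1 with DESeq2 and 0 when 1 library was left out.

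Genes at least 1 log2 unit higher in all pairs numbered 101 (72 to 114 with other prior counts, 102 with RLE), and lower 13 (17 with a prior count of 1, 2 with a prior count of 5 and 15 with RLE). Without pair 1, 2 or 3 they numbered 338, 195 and 290 higher and 118, 82 and 79 lower.

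FOSB reversed from −0.59 to 1.11 with the batch term, 1.64 with DESeq2 and the batch term, 1.10 with the replicate block, 2.39 without pair 1, and −1.203 to 2.63 without 1 library (highest without control 1). CCND1, at 0.00318, had −0.00337 with the replicate block, −0.0152 without pair 1, and −0.36 (without control 1) to 0.3505 (without EGF 1) without 1 library, with −0.17 without EGF 2 and −0.25 without EGF 3. Of the 24 alternatives DUSP5 was called in 21, CSRNP1 and EGR2 in 18, and ERRFI1 and ATF3 in 17. In groups of 2 or 3 libraries a lone remaining library was taken to vary like the other groups. Depth limits genes under about 1 CPM, such as EGR4 and NR4A2, which had 0 to 68 counts in a library.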
